A study of Mus musculus with 20 samples.

Results

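The treatment by tissue interaction of MDL-800 in the aged mouse disc is the contrast (NP MDL-800 − NP vehicle) − (AF MDL-800 − AF vehicle): for each gene, how far the response of the nucleus pulposus (NP, the soft centre of the disc) differed from that of the annulus fibrosus (AF, the lamellar ring that encloses it). It uses all 20 of the 20 libraries of the series, 5 in each of 4 groups, and 16383 of 51789 genes in the table reached the level needed for a test. All groups were BL6 mice that entered the study at 18 months of age and were killed at 24 months. NP vehicle and AF vehicle came from mice injected intraperitoneally each week for 6 months with DMSO; NP MDL-800 and AF MDL-800 came from mice given MDL-800 in the same amount of DMSO, so the solvent is common to all 20 libraries. MDL-800 is described by the series title as a SIRT6 activator. The labels give no sex and do not say whether 1 mouse gave both an NP and an AF library or how many discs went into a library, so the p-values measure the spread between these libraries. A library is called by its group and its title's number.

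SIRT6 is a nuclear enzyme that uses NAD to remove acyl groups from histone H3 and other proteins, and it is known for roles in DNA repair, in the repression of glycolytic and inflammatory genes and in ageing. NP cells derive from the notochord, live with little oxygen and make aggrecan and type II collagen. AF cells make oriented type I collagen and sit next to the bony endplate, ligament, nerve endings and paraspinal muscle, so a dissected AF can carry RNA of those tissues. In bulk RNA, fewer cells of a type and less RNA per cell cannot be told apart.

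Every effect below is a difference of group means of log2(scaled FPKM + 1). FPKM is fragments per kilobase of transcript, set to a common library total, and was scaled here so that the libraries share a median, and the added 1 understates the change of low genes. The NP effect is MDL-800 minus vehicle in NP, the AF effect is the same in AF, and the difference is the NP effect minus the AF effect. Mmp16, Ihh, Car12, Cxcl1, Gdf10 and Kera below were under 1 scaled FPKM in every NP library and reached the level needed for a test through AF. For them, and for Matn3, an NP response could hardly be seen. Their difference is close to the AF effect with its sign turned. The labelled tissues were checked against their markers first. The mean log2 level of 14 tested NP markers was 6.72 to 6.88 in NP vehicle and 6.81 to 7.06 in NP MDL-800, against 4.97 to 6.34 in AF vehicle and 5.18 to 6.31 in AF MDL-800. The 13 AF markers ran the other way, from 2.82 to 3.77 over NP libraries and from 5.67 to 6.75 over AF libraries. Each tissue was thus set apart in all libraries, but NP markers were well above 0 in AF. Krt19, a notochordal keratin, was at 640 to 2355 scaled FPKM in NP libraries and 66.9 to 725 in AF libraries, and the part of NP cells in the AF values was not tested.

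No gene passed an adjusted p of 0.05 for the difference (0 of 16383, or 0%; limma, smallest adjusted p = 0.9997), so the genes below are a description of the largest measured differences. At an unadjusted limma p under 0.05 there were 611 genes, 3.73% of those tested, where a uniform spread of p-values gives 5%. Of these, 348 (2.12%) had an NP effect above the AF effect and 263 (1.61%) had it below. With the deposited FPKM left unscaled the balance turned, to 262 above and 323 below. The difference was above 0 for 7505 genes (45.8%), with a median over all genes of -0.02. The NP effect alone passed an adjusted p of 0.05 for 4 genes (0.0244%) and the AF effect for 0 (0%; 436 at an unadjusted limma p under 0.05). All 5 MDL-800 libraries lay above all 5 vehicle libraries for 574 genes in NP (3.5%) and for 21 in AF (0.128%), and below them for 164 genes in NP (1%) and for 16 in AF (0.0977%). No gene stood apart in both tissues in opposite directions.

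Most genes past the unadjusted threshold had effects of opposite sign in the tissues, and in the positive set the larger effect was mostly that of NP. Of the 348 with a positive difference, 204 had an NP effect above 0 and an AF effect below it, 141 had both above 0, and 309 had the larger effect in NP. Their median NP effect was 0.55 and their median AF effect -0.03. Of the 263 with a negative difference, 237 had an NP effect below 0 and an AF effect above it, with medians of -0.26 in NP and 0.21 in AF. These medians follow from choosing the genes by the difference and are a description only. The precision of the contrast sets what could be seen: the median standard error of the difference was 0.23, against 0.16 for either effect alone. The spread within groups was also wider in AF, with a median SD of 0.28 against 0.21 in NP, and 69.2% of genes had the larger SD in AF.

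**Figure D1:**
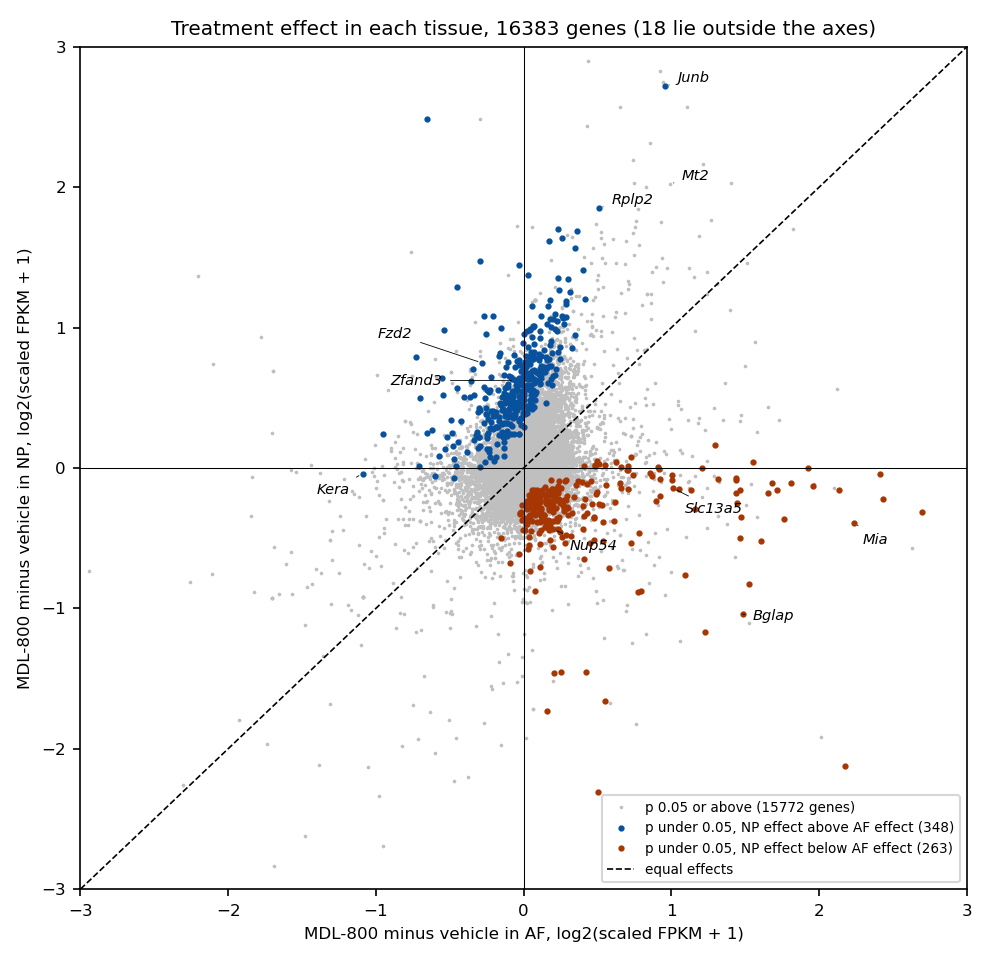
Treatment effect in AF (x axis) and in NP (y axis), both on the log2(scaled FPKM + 1) scale, with a point for each gene within the axes and a dashed line where both effects are equal. The 348 blue genes lie above the line, mostly at AF effects near 0, and the 263 brown genes lie below it, several with AF effects above 1.

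Among protein-coding genes with a mean of at least 5 scaled FPKM in some group, the smallest p of a positive difference was that of Zfand3, which encodes an AN1-type zinc finger protein (ENSMUSG00000044477, GRCm38 chromosome 17, 30004733 to 30210828, plus strand). Its scaled FPKM was 29.2, 29.5, 34.6, 38.8 and 41.2 in NP vehicle libraries 1, 2, 3, 5 and 6, and 50.7, 59.9, 51.0, 59.9 and 47.2 in NP MDL-800 libraries 15, 18, 19, 20 and 22. It was 30.1, 31.1, 31.1, 26.1 and 26.6 in AF vehicle libraries 8, 9, 10, 12 and 13, and 28.4, 24.7, 26.5, 33.5 and 26.5 in AF MDL-800 libraries 25, 27, 28, 29 and 30. Every NP MDL-800 library was above every NP vehicle library, while the AF groups overlapped. The NP effect was 0.62 (SE 0.11) and the AF effect -0.06 (SE 0.11), a difference of 0.68 (SE 0.15; 95% interval 0.36 to 1.01).

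Fzd2, a cell-surface receptor for Wnt ligands, had the larger difference (ENSMUSG00000050288, chromosome 11, 102604396 to 102608058, plus strand). NP vehicle libraries were at 3.23, 4.05, 6.24, 5.58 and 4.73 scaled FPKM and NP MDL-800 libraries at 7.78, 7.85, 7.68, 10.6 and 9.00, with no overlap. AF vehicle libraries were at 5.47, 3.75, 4.94, 3.09 and 4.65, and AF MDL-800 libraries at 3.51, 2.80, 3.60, 5.16 and 2.29, which overlap. The difference was 1.03 (SE 0.25; 95% interval 0.51 to 1.55), made of an NP effect of 0.75 and an AF effect of -0.28. Pacs2, a sorting protein of contacts between endoplasmic reticulum and mitochondria (chromosome 12, 113014508 to 113074401, plus strand), was at 16.9 to 20.7 in NP vehicle and at 21.9 to 27.7 in NP MDL-800, and at 18.5 to 22.3 in AF vehicle and 14.9 to 20.5 in AF MDL-800. Its difference was 0.49 (SE 0.13; 95% interval 0.22 to 0.76). 2810428I15Rik, a protein-coding gene with no role given here (chromosome 8, 70504292 to 70506752, minus strand), was at 6.98 to 10.9 in NP vehicle and 12.9 to 20.4 in NP MDL-800, against 13.8 to 15.9 and 11.2 to 18.8 in the AF groups. In each of these genes the NP groups stood apart and the AF groups overlapped.

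**Figure D2:**
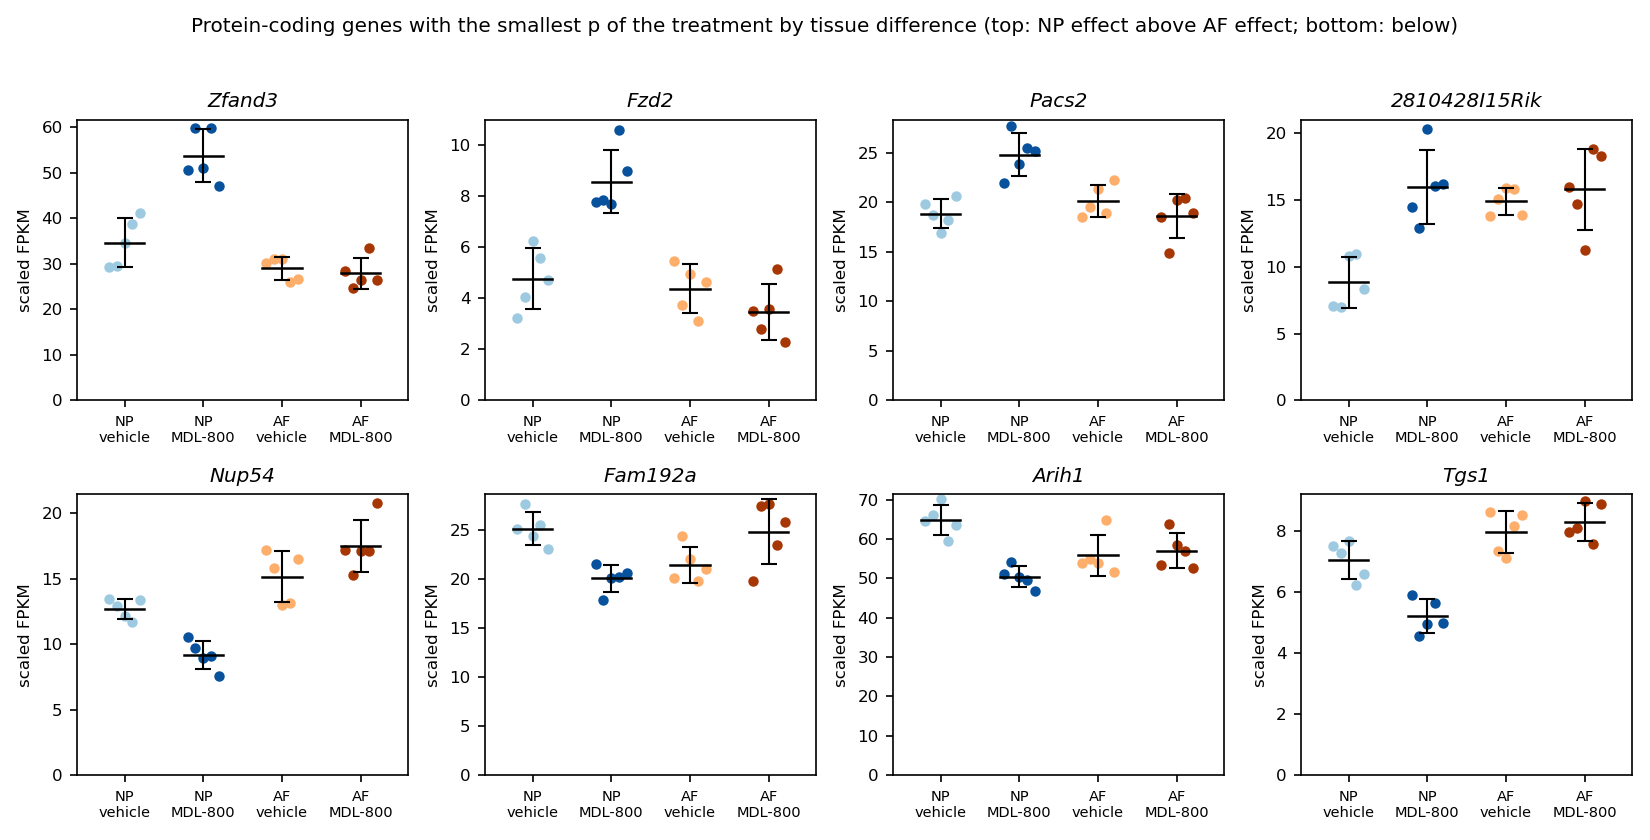
Scaled FPKM in each library (points) for 8 protein-coding genes, with the mean and SD of each group of 5 as a line and bar, and each y axis starting at 0. In the upper row the NP MDL-800 points lie above the NP vehicle points, in the lower row they lie below them, and in both rows the AF groups overlap.

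The next 6 positive genes shared that form with 1 exception. Aebp1, a secreted collagen-binding protein, was at 92.4 to 134 in NP vehicle and 142 to 182 in NP MDL-800, with overlapping AF groups of 48.6 to 75.5 and 47.5 to 64.6 (difference 0.65, SE 0.19). Adamts2, the protease that trims the amino end of fibrillar procollagens, was at 12.3 to 14.4 in NP vehicle and 16.5 to 22.1 in NP MDL-800 (difference 0.60, SE 0.18). Naglu, a lysosomal enzyme of heparan sulfate breakdown, was at 9.77 to 15.9 and 17.3 to 22.7 (difference 0.74). Slc35e4, a solute carrier, and Plekhg5 had differences of 0.95 and 0.76. Wisp2, a secreted protein of the CCN family, was the exception: its NP groups overlapped (13.5 to 23.6 and 17.6 to 27.1), and its difference of 0.70 came from an NP effect of 0.41 and an AF effect of -0.29. All 10 positive genes kept a limma p under 0.05 when any 1 library was left out. As they were chosen by the smallest p of the same contrast, this is a description and no separate support.

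At the same level, the smallest p of a negative protein-coding difference belonged to Nup54, a subunit of the nuclear pore channel (ENSMUSG00000034826, chromosome 5, 92415540 to 92435219, minus strand). It was at 13.4, 12.9, 12.1, 11.7 and 13.4 in NP vehicle and 10.5, 9.71, 8.96, 9.07 and 7.57 in NP MDL-800. In the AF it was at 17.2, 15.8, 13.0, 13.2 and 16.5 with vehicle, and with MDL-800 at 17.2, 15.3, 17.1, 17.1 and 20.8. NP MDL-800 was below NP vehicle without overlap, and the AF groups overlapped with the higher mean in MDL-800. The difference was -0.64 (SE 0.14; 95% interval -0.94 to -0.34).

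Fam192a (chromosome 8, 94574138 to 94601997, minus strand), whose product binds a proteasome activator, was at 23.05 to 27.7 in NP vehicle and 17.9 to 21.6 in NP MDL-800, and at 19.8 to 24.4 and 19.8 to 27.7 in the AF groups (difference -0.51, SE 0.13). Arih1, a ubiquitin ligase (chromosome 9, 59388258 to 59486618, minus strand), was at 59.5 to 70.2 and 46.7 to 54.2 in NP, and at 51.7 to 64.9 and 52.5 to 63.7 in AF (difference -0.39). Tgs1, which hypermethylates the caps of small nuclear and nucleolar RNAs (chromosome 4, 3574875 to 3616619, plus strand), was at 6.23 to 7.66 and 4.54 to 5.90 in NP, and at 7.12 to 8.63 and 7.56 to 8.98 in AF (difference -0.43). For these the NP groups did not overlap. Nop58, a core protein of small nucleolar ribonucleoproteins, and Pes1, a ribosome assembly factor, had differences of -0.58 and -0.39 with overlap in both tissues. Cdc16, a subunit of the anaphase-promoting complex, and Fahd2a had differences of -0.39 and -0.64.

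A pair of the negative genes differed in kind, with nearly all of the movement in AF. Slc13a5, a citrate transporter that is strong in bone-forming cells, was at 0.482 to 1.19 in NP vehicle and 0.410 to 0.847 in NP MDL-800, but at 7.71, 2.38, 2.02, 3.03 and 5.57 in the AF with vehicle and 6.27, 7.46, 11.4, 11.1 and 7.46 in AF MDL-800 (AF effect 1.01; difference -1.15, SE 0.34). Mia, a secreted protein of cartilage, was at no more than 2.80 in any NP library, at 2.44 to 48.1 in AF vehicle and at 22.1 to 133 in AF MDL-800 (AF effect 2.24; difference -2.63). The groups overlapped in both tissues for both genes. With the mean of bone markers as a covariate the difference of Mia was -1.63, no longer at a limma p under 0.05, and that of Slc13a5 was -0.95. Here and below, that covariate was centred within each tissue and not within each group. It therefore carries the treatment shift of the bone markers in AF and takes out any effect that moves with them.

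Genes of other types were led by Rps13-ps2, a processed pseudogene of the ribosomal protein gene Rps13 (chromosome 7, 88530446 to 88530898, minus strand). It was at 118 to 181 scaled FPKM in NP vehicle and listed at 0 in all 5 NP MDL-800 libraries. It was at 92.7, 210, 199, 126 and 119 in the AF with vehicle, and at 87.9, 153, 134, 37.9 and 0 in AF MDL-800, where the 0 is library 30. No fold is given against a group listed at 0, and reads shared with Rps13 and its other copies make the level uncertain. The fitted difference was -5.26 (limma, adjusted p = 0.9997), and it passed the adjusted threshold only when AF MDL-800 library 30 was left out (-6.56, limma adjusted p = 1.46e-07), alone or with 2 other AF libraries. Rps12l1, also a copy of a ribosomal protein gene, was at 214 to 441 in NP vehicle and 48.9 to 189 in NP MDL-800, and at 167 to 375 and 220 to 415 in AF (difference -1.67). Positive differences were found for 1810034E14Rik (0.64), AC166358.2 (1.74) and 6330403L08Rik (0.59), which have no role given here.

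The size of the difference followed the base composition of the gene. In the 1 of 5 equal sets of genes with the highest GC content (55.2% to 78.3% of transcript bases) the median difference was 0.17, and 7.28% of genes had a positive difference at a limma p under 0.05 against 0.58% with a negative one. In the set with the lowest GC content the median was -0.08, with 0.21% positive and 2.26% negative. The median NP effect went from -0.10 to 0.20 between these sets of genes, and the median AF effect from -0.02 to 0.06. The slope of a library's log2 level on GC content, per 10 points of GC, was -0.28 to -0.01 in NP vehicle and 0.02 to 0.09 in NP MDL-800, without overlap, and -0.24 to 0.10 and -0.11 to 0.14 in AF, with overlap. The low NP slopes were those of vehicle libraries 1 and 2. With this trend removed from each library, 508 genes were at a limma p under 0.05, 278 positive and 230 negative; Zfand3 was at 0.56, Fzd2 at 0.91 and Nup54 at -0.56. In that setting some genes named below were no longer at a limma p under 0.05, such as Smpd1 (0.17), Xylt2 (0.31) and Tap1 (0.53). Others stayed under it, such as Mcoln1 (0.38), Chrd (0.74) and Junb (1.46). The part of GC content in the results was not tested beyond the values given with this trend removed.

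**Figure D3:**
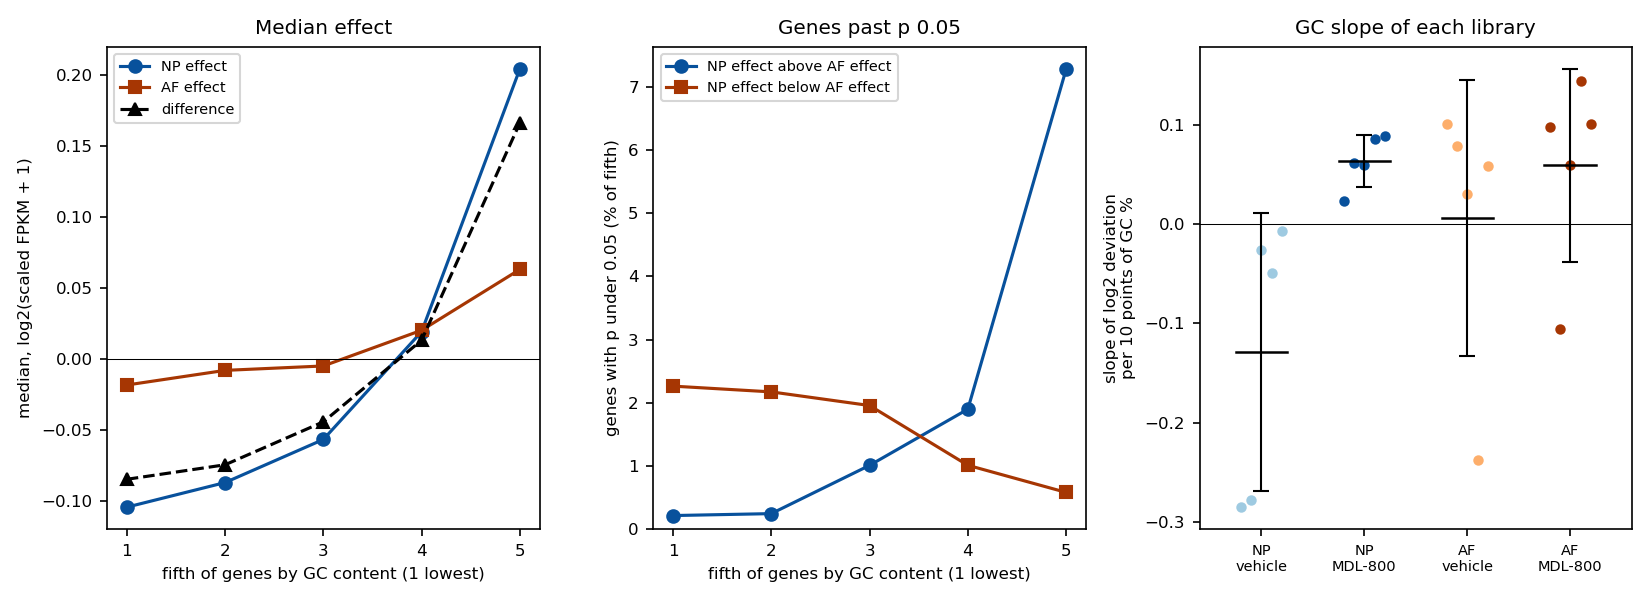
Left and centre, median effects (log2 scale) and the percentage of genes at a limma p under 0.05 in 5 equal sets of genes by GC content; right, the slope of each library's log2 deviation on GC content (points, with group mean and SD, n = 5). The difference and the share of positive genes climb with GC content, and the NP MDL-800 slopes lie above all NP vehicle slopes.

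The pathway lists held 848 different tested genes. Of these, 19 (2.24%) had a positive and 13 (1.53%) a negative difference at a limma p under 0.05, close to the shares over all genes, and none passed the adjusted threshold. The median difference was above 0 in 24 of 37 lists and within 0.1 of 0 in 20. The largest medians were those of the immediate early genes (0.37), interferon-stimulated genes (0.28), clock genes (0.27), complement (0.23), sirtuins, integrins and laminins, and the HIF pathway (each 0.19). The lowest were those of proliferation genes (-0.25), collagens (-0.17) and cholesterol synthesis (-0.15). These medians rest on few libraries: leaving out 1 library moved the median by over 1.5 times for all 37 lists and turned its sign for 18. A list median is the median over its genes, so the medians of the NP and AF effects need not subtract to that of the difference.

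**Figure D4:**
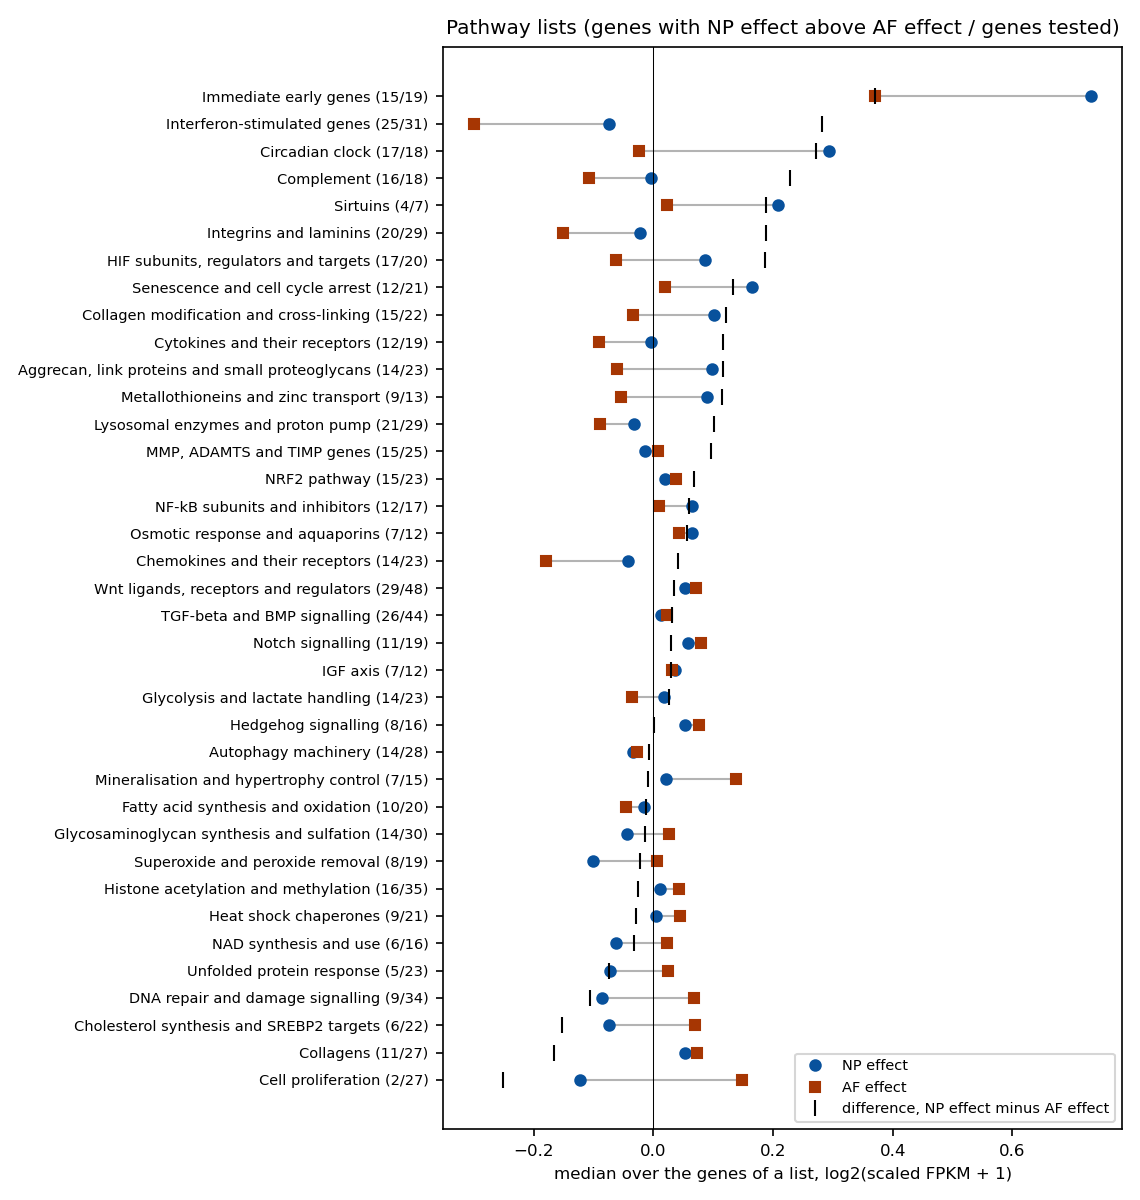
Median NP effect (circle), AF effect (square) and difference (bar) of 37 pathway lists on the log2(scaled FPKM + 1) scale, with the number of genes whose NP effect is above the AF effect out of those tested. Immediate early genes stand at 0.73 in NP and 0.37 in AF, and proliferation genes are at the foot with a median difference of -0.25.

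Among the sirtuins, which share the NAD-dependent deacylase fold, 4 of 7 genes had a positive difference and none reached a limma p of 0.05. Sirt6, the gene of the enzyme that MDL-800 is reported to activate, was at 3.00, 4.70, 5.00, 6.11 and 6.34 scaled FPKM in the NP with vehicle and 8.14, 8.21, 9.00, 8.94 and 8.14 in NP MDL-800. In AF it was at 5.47, 5.01, 4.47, 2.85 and 5.84 in vehicle and 6.12, 2.69, 4.97, 6.26 and 7.69 in MDL-800. The NP groups did not overlap and the AF groups did, yet the difference of 0.52 (SE 0.29) had a 95% interval of -0.10 to 1.14, which holds 0. Leaving out 1 library moved it from 0.33 (AF MDL-800 27) to 0.66 (AF vehicle 12), with a limma p under 0.05 in 2 of 20 omissions. It was 0.74 with bone markers as a covariate and 0.55 without 3 AF libraries together, both at an unadjusted limma p under 0.05, and 0.34 with the GC trend removed, which was not. The list median ran from 0.02 to 0.37 over the same pair of omissions. Sirt2, the mainly cytosolic tubulin deacetylase, had a difference of 0.31 (-0.06 to 0.67) and Sirt3, the main mitochondrial deacetylase, 0.34 (-0.08 to 0.75). The intervals of the other sirtuins also held 0: Sirt1 at -0.03 (-0.27 to 0.21), Sirt4 at -0.07 (-0.50 to 0.36), Sirt5 at -0.07 (-0.38 to 0.23) and Sirt7 at 0.19 (-0.44 to 0.82).

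Lists tied to known SIRT6 roles had few genes past the unadjusted threshold. NAD synthesis and use had a median difference of -0.03 (6 of 16 positive), chromatin acetylation and methylation -0.03 (16 of 35) and DNA repair -0.11 (9 of 34, or 26.5%, against 45.8% of all genes). The DNA repair median was below 0 in all 41 alternatives, but it was -0.06 with the GC trend removed, with 12 of 34 positive. The list's median GC content was 46.7%, within a set of genes of which 33.1% had a positive difference. Kdm6b, a histone H3 lysine demethylase, was the only chromatin gene at a limma p under 0.05, with NP values of 9.34 to 21.2 in vehicle and 20.6 to 30.0 in MDL-800, which overlap (difference 0.63). Glycolysis had a median of 0.03 (14 of 23), with positive differences for Pfkfb3 (0.76), which makes the activator of phosphofructokinase, and Slc16a3 (0.66), the lactate exporter. Slc16a3 was at 29.8 to 49.3 in NP vehicle and 53.9 to 88.6 in NP MDL-800 without overlap, and at 23.9 to 55.3 and 22.4 to 48.1 in AF. Senescence genes had a median of 0.13 (12 of 21; 0.03 without AF vehicle 8), NF-kB subunits and inhibitors 0.06 (12 of 17) and the lysosome 0.10 (21 of 29). In the last, Mcoln1, the lysosomal calcium channel, and Smpd1, acid sphingomyelinase, had differences of 0.35 and 0.27 at a limma p under 0.05.

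Wnt signalling, the longest pathway list, had 4 of 48 genes (8.33%) with a positive difference past the unadjusted threshold, against 2.12% of all genes, and none negative. Besides Fzd2 they were Dvl1, Dvl3 and Wnt11, described here after their values were seen. All 4 belong to the set of genes with the highest GC content, in which 7.28% had a positive difference past that threshold. The Dishevelled proteins carry the signal from Frizzled receptors into the cell. Dvl1 was at 6.71 to 11.5 in NP vehicle and 12.1 to 18.1 in NP MDL-800, and at 8.12 to 11.0 and 10.4 to 14.8 in AF (difference 0.48, SE 0.19). Dvl3 was at 7.23 to 13.4 and 15.7 to 18.5 in NP, and at 6.10 to 9.73 and 6.13 to 10.6 in AF (difference 0.56). Wnt11, a ligand of the branch that does not use beta-catenin, was at 1.69 to 3.23 and 3.77 to 8.33 in NP, and at 1.87 to 2.20 and 1.88 to 3.22 in AF (difference 0.54). In all 3 genes the NP groups were apart and the AF groups overlapped.

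Across the Wnt list, NP MDL-800 was above NP vehicle without overlap in 8 of 48 genes (16.7%, against 3.5% of all genes), namely Fzd2, Dvl1, Dvl2, Dvl3, Wnt11, Wnt5b, Lrp5 and Ror2. That count is of NP values and not of the difference. The difference was 0.07 for Wnt5b, 0.29 for Lrp5, 0.32 for Dvl2 and 0.48 for Ror2, none at a limma p under 0.05. Wnt5b had an NP effect of 0.34 and an AF effect of 0.27. The list as a whole did not lean: 29 of 48 differences were positive with a median of 0.03, and with the GC trend removed 24 were positive. The 8 genes apart in NP had a GC content of 54.7% (Lrp5) to 60.0% (Wnt5b), against a median of 51.8% for the list and 49.3% for all genes, so they fall in or next to the set of genes in which NP effects ran high. The lowest members were the Wnt inhibitors Notum (-0.74) and Sost (-0.61), and Rspo3 (-0.47), an enhancer of the pathway. Sost is a product of osteocytes and is also in the bone list. With the GC trend removed Fzd2 was at 0.91, Dvl3 at 0.47 and Dvl1 at 0.28, still at a limma p under 0.05, while Wnt11 was at 0.41 and no longer was. In the same setting Ror2 was at 0.29, Lrp5 at 0.22, Dvl2 at 0.18 and Wnt5b at -0.16, none at that threshold.

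In the TGF-beta and BMP list 26 of 44 differences were positive, with a median of 0.03. Chrd, an extracellular BMP antagonist, was at 7.92 to 14.0 in NP vehicle and 17.8 to 23.5 in NP MDL-800, against 2.64 to 6.87 and 3.80 to 5.91 in AF (difference 0.78, SE 0.29). Gdf10 went the other way through AF, at 8.08 to 40.6 in vehicle and 15.2 to 68.4 in MDL-800, with at most 0.968 in NP (difference -1.29). Ihh, the hedgehog ligand of hypertrophic cartilage, was at most 0.212 in NP, at 0.247 to 8.67 in AF vehicle and at 3.22 to 20.3 in AF MDL-800 (difference -1.51, SE 0.66). Both lost a limma p under 0.05 with bone markers as a covariate, at -0.87 for Gdf10 and -0.88 for Ihh.

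The collagens, the main fibres of the disc, had a median difference of -0.17 (11 of 27 positive). It became 0.30 with bone markers as a covariate and 0.12 without AF vehicle library 9, and was -0.48 without AF vehicle library 8. The bone markers include Col1a1, itself a collagen gene. Col9a2 (-1.01), Col10a1 (-0.78) and Col11a1 (-0.74), collagens of cartilage, were lowest, with AF effects of 1.35, 0.71 and 0.40 and NP effects of 0.34, -0.07 and -0.35, and Col4a2 (0.62), of basement membranes, was highest. None reached a limma p of 0.05. Of 23 aggrecan, link protein and small proteoglycan genes 14 were positive (median 0.12, or -0.10 without AF MDL-800 library 30), but Matn3, a matrilin of growing cartilage, was at -1.62: AF vehicle libraries were at 16.5, 1.23, 3.73, 2.16 and 17.3, AF MDL-800 libraries at 12.6, 14.3, 42.2, 24.1 and 6.58, and no NP library passed 1.17. With bone markers as a covariate Matn3 was at -0.92, no longer at a limma p under 0.05. Acan, the aggrecan core protein, had a difference of -0.07.

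Among 30 genes of glycosaminoglycan synthesis, 14 were positive and the median was -0.01. Xylt2, which starts the chains on the core protein, and Chpf, a chondroitin chain polymerising factor, had differences of 0.55 and 0.93 at a limma p under 0.05, while Papss2, which makes the sulfate donor, and Ugdh, which makes UDP-glucuronate, had -0.82 and -0.32. With bone markers as a covariate Papss2 was at -0.57 and Xylt2 at 0.53, neither at a limma p under 0.05. With the GC trend removed Papss2 was at -0.74 and Xylt2 at 0.31, again neither at that threshold. In the MMP, ADAMTS and TIMP list 15 of 25 were positive (median 0.10). Mmp16, a membrane-bound metalloproteinase, was the only member at a limma p under 0.05 and one of 21 genes whose AF MDL-800 libraries all lay above AF vehicle: 1.69, 0.878, 1.05, 0.790 and 1.22 in AF vehicle against 1.92, 2.25, 3.08, 2.27 and 2.79 in AF MDL-800, with at most 0.254 in NP. Its AF effect was 0.71 and its difference -0.72 (SE 0.16; 95% interval -1.07 to -0.38), and it was -0.60 with bone markers as a covariate. With NP this near 0, the difference is nearly the AF effect with its sign turned.

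Genes of mineralisation were balanced as a list (7 of 15 positive, median -0.01). Runx2 (-0.80), Alpl (-1.20) and Sp7 (-0.92), a regulator of osteoblast formation, the phosphatase of mineralising matrix and a further osteoblast regulator, were the only genes at a limma p under 0.05, all negative. That was 20% of the list, against 1.61% of all genes with a negative difference past that threshold. Runx2 was at 12.3 to 28.7 in AF vehicle and 14.7 to 40.3 in AF MDL-800, against 2.50 to 4.47 over NP. Alpl was at 17.6 to 63.8 and 47.2 to 117 in AF and at most 3.30 in NP. The AF groups overlapped for both. The bone marker list, which also holds Sp7, moved with them. Of its 10 genes, 0 had a positive difference, against 45.8% of all genes. Its median was -0.84 (-0.50 without AF vehicle library 12), with an NP effect of -0.12 and an AF effect of 0.76. Its mean log2 level was 4.83 to 6.70 in AF vehicle and 6.35 to 7.09 in AF MDL-800, which overlap, and 1.88 to 3.85 over NP libraries. A gene of the bone or mineralisation list could reach the level needed for a test through AF alone. The added 1 understates a change at low NP levels, and how far this set the counts of both lists was not tested. Bglap, osteocalcin, was at 104 to 396 in AF vehicle and 319 to 1045 in AF MDL-800. With the bone list as a covariate, which takes this shift out by construction, the median was -0.09, Runx2 was at -0.48 and Alpl at -0.40, neither at a limma p under 0.05; how much of the other AF effects rests on bone RNA was not tested.

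**Figure D5:**
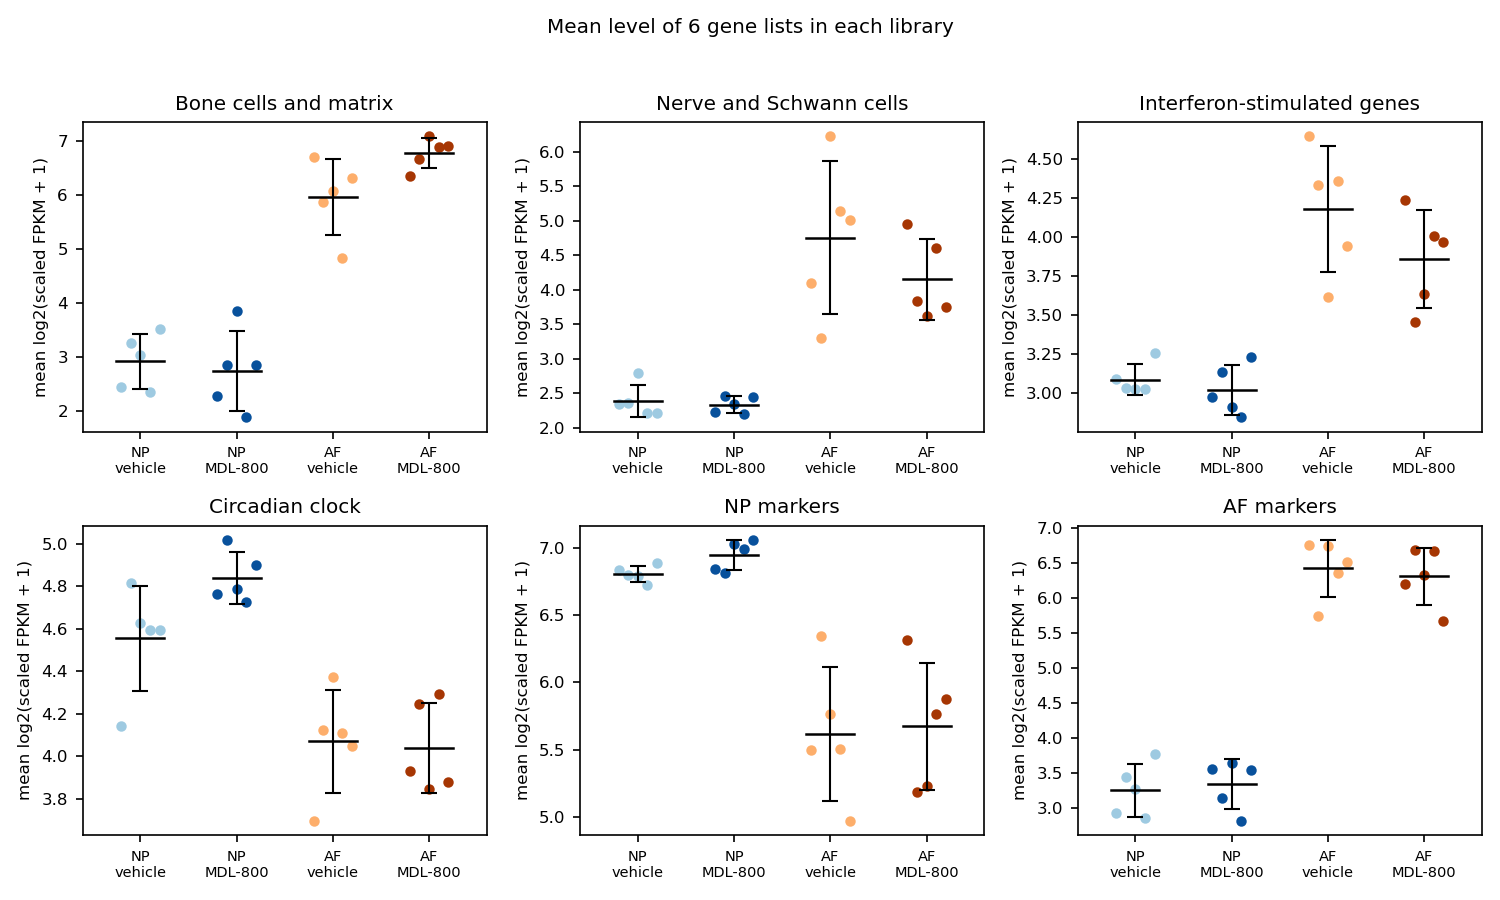
Mean log2(scaled FPKM + 1) of 6 gene lists in each library (points), with the mean and SD of each group of 5; the y axes do not start at 0. Bone markers reach 7.09 in AF MDL-800 and start at 4.83 in AF vehicle, nerve markers reach 6.23 in AF vehicle library 10, and NP markers span 4.97 to 6.34 over AF libraries.

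Markers of other neighbouring cells are given for comparison; in the nerve, MHC class II, macrophage, muscle, red cell, neutrophil and endothelial lists no gene had a limma p under 0.05 for the difference. For 9 nerve and Schwann cell markers the median difference was 0.76 (7 positive) from an AF effect of -0.85, while the NP effect was near 0. Their mean level was 3.31 to 6.23 in AF vehicle and 3.63 to 4.95 in AF MDL-800, with library 10 of the vehicle group highest, and without that library the median was 0.31, against 1.16 without library 9. Mbp, myelin basic protein, was at 56.7, 72.3, 436, 131 and 128 in the AF with vehicle and 130, 34.8, 59.5, 97.3 and 59.1 in AF MDL-800 (difference 1.08, 95% interval -0.23 to 2.39). All 8 MHC class II presentation genes had a positive difference (median 0.33; AF effect -0.49, NP effect -0.10; 0.08 without NP MDL-800 library 18), as did 8 of 10 macrophage markers (0.20). H2-Ab1 was at 114 to 247 in AF vehicle and 83.9 to 123 in AF MDL-800. Skeletal muscle markers had 1 of 14 positive, red blood cell markers 0 of 11, neutrophil markers 3 of 12 and endothelial markers 2 of 11, with medians of -0.19, -0.22, -0.19 and -0.16; with 1 library left out these ran from -0.78 to 0.69, -0.56 to 0.10, -0.70 to 0.33 and -0.28 to 0.03. Kera, a corneal and tendon proteoglycan among the AF markers, was at no more than 0.553 in any NP library, at 4.45 to 15.2 in AF vehicle and at 1.21 to 6.83 in AF MDL-800 (difference 1.05).

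Interferon-stimulated genes were close to level in NP and lower on average in AF MDL-800. Of 31 genes, 25 had a positive difference; the median NP effect was -0.07 and the median AF effect -0.30. Tap1, the peptide transporter of antigen presentation, was at 27.2, 19.6, 10.9, 27.5 and 23.5 in the AF with vehicle and 15.0, 11.4, 13.5, 16.0 and 20.1 in AF MDL-800, and at 4.09 to 7.39 and 5.08 to 7.36 in NP (difference 0.63, 95% interval 0.02 to 1.24). Irf7, Gbp2 and Ifit1 had differences of 0.78, 0.64 and 0.56. The groups overlapped for all 31 genes in both tissues. The list median was 0.10 without AF vehicle library 8. Without AF vehicle library 12 and AF MDL-800 libraries 27 and 30 together it was 0.09. Complement genes were positive in 16 of 18 cases (median 0.23; 0.09 with NP vehicle library 5 left out and 0.43 with library 6 left out), with Cd59a, a membrane inhibitor of complement, the only one past a limma p of 0.05 and negative (-0.45). Among chemokines and receptors Cxcl1, a neutrophil attractant, was at -1.09, with 2.71 to 12.7 in AF MDL-800, 0.366 to 3.70 in AF vehicle and at most 0.223 in NP.

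Immediate early genes, which respond within minutes to stimuli, had a positive difference in 15 of 19 cases and a median NP effect of 0.73 against 0.37 in AF. Their median difference of 0.37 was 0.09 when NP vehicle library 1 was left out and 0.68 when library 3 was. Junb, an AP-1 subunit, was at 1.54, 3.10, 13.5, 13.6 and 12.3 in NP vehicle and 43.9, 59.2, 43.0, 53.1 and 55.9 in NP MDL-800. In AF it was at 17.7, 9.74, 15.7, 3.50 and 9.04 in vehicle and 22.8, 7.51, 12.7, 35.2 and 40.7 in MDL-800. Its NP groups did not overlap, and its difference was 1.76 (SE 0.72; 95% interval 0.23 to 3.30), or 1.36 without NP vehicle library 1. Ier2 (1.11), Klf2 (0.72) and Jund (0.59) followed, and Myc (-0.20) was lowest. With the GC trend removed the list median was 0.24, with 15 of 19 positive. Junb was then at 1.46 and Jund at 0.14. Hspa1b, an inducible chaperone, had a difference of 0.80, while heat shock chaperones as a list were at -0.03 (9 of 21).

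The metallothioneins bind zinc and are induced by metals, glucocorticoids and stress through the factor MTF1. Their promoters are shown because Mt1 and Mt2 had the same form of response, and capitals mark TGCNCNC with A or G at its first N, the core of the metal response element, on either strand. The 300 bases run from 250 before to 50 after the start site (RefSeq, GRCm38.p6, plus strand), chr8:94178839-94179138 for Mt1 and chr8:94172368-94172667 for Mt2.
Mt1: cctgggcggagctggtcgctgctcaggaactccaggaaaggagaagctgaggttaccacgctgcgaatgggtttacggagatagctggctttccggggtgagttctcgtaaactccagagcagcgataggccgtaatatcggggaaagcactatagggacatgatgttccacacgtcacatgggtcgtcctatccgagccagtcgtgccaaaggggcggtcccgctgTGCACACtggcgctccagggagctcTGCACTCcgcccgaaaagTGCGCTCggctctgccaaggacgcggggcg
Mt2: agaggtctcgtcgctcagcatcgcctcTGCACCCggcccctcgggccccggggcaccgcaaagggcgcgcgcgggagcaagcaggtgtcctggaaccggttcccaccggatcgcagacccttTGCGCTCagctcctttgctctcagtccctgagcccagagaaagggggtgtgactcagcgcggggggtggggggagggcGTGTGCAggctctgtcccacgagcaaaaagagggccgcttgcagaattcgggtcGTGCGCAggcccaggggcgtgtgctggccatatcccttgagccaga
The motif was at 3 places in the Mt1 window and 4 in the Mt2 window, and 25.7% of 32851 promoters of that length hold it. Mt2 was at 37.1, 24.9, 26.6, 42.1 and 63.6 scaled FPKM in the NP with vehicle and 111, 125, 247, 98.6 and 240 in NP MDL-800, and at 80.2, 33.4, 40.4, 22.5 and 43.4 in the AF with vehicle and 156, 28.7, 44.9, 103 and 165 in AF MDL-800. The NP effect was 2.02 and the AF effect 0.99; AF libraries 25, 29 and 30 were high and 27 and 28 were within the vehicle range. The difference of 1.03 had a 95% interval of -0.31 to 2.38. Mt1 had effects of 1.31 and 0.71 and a difference of 0.60 (-0.25 to 1.45), with the same AF libraries high. Both genes were thus above vehicle in NP without overlap, and the contrast did not separate their responses by tissue.

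Of the pathway lists, the circadian clock had the highest share of positive differences. Its activators CLOCK and BMAL1 bind the E-box CACGTG and switch on Per and Cry genes, whose products repress them. Windows of the same length are shown for Per1 (chr11:69098699-69098998, plus strand) and Ciart (chr3:95882179-95882478, minus strand), the list's members with the largest differences, with CACGTG in capitals.
Per1: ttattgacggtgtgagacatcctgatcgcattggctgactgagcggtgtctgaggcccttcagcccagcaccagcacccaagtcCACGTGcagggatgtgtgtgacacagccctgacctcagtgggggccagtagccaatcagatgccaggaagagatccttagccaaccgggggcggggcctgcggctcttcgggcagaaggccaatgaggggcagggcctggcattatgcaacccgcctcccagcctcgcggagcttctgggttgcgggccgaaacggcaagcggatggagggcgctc
Ciart: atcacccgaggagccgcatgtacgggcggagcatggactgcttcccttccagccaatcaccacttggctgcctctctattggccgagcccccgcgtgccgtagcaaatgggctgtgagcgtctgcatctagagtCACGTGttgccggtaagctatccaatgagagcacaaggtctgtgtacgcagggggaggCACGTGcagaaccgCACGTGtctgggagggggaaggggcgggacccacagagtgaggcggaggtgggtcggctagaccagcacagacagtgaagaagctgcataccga
The motif was at 1 place in Per1 and 3 in Ciart, in 5 of the 16 clock promoters matched (31.2%) and in 7.15% of all 32851 promoters. A positive difference was found for 17 of 18 clock genes (94.4%, against 45.8% of all genes), with a median of 0.27, an NP effect of 0.29 and an AF effect of -0.02. Per1 was at 23.2, 55.2, 45.0, 41.0 and 40.0 in NP vehicle and 53.3, 120, 59.1, 65.9 and 131 in NP MDL-800, and at 9.86 to 27.4 and 14.2 to 32.8 in AF (difference 0.82, 95% interval -0.18 to 1.82). Ciart, a repressor of the clock named after its values were seen, was at 1.09 (SE 0.72), Per2 at 0.63 and Cry2 at 0.53; their groups overlapped, and no clock gene reached a limma p of 0.05. Npas2 (-0.03) was the negative member. The median stayed above 0 in all 41 alternatives but was 0.14 without NP vehicle library 1, and with bone markers as a covariate 11 of 18 genes were positive.

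The HIF pathway, which answers to low oxygen, had 17 of 20 positive differences (median 0.19; 0.11 without AF vehicle library 10). Adm, adrenomedullin, had the largest at 1.13, with NP values of 17.8 to 73.5 in vehicle and 61.9 to 145 in MDL-800 and AF values of 4.05 to 29.4 and 5.37 to 9.95. Ddit4 (0.71), an inhibitor of mTORC1, and Egln2 (0.58), an oxygen-sensing prolyl hydroxylase, followed, and none of the 3 reached a limma p of 0.05. Car12, a membrane carbonic anhydrase, was the negative exception (-1.05, 95% interval -1.86 to -0.24): no NP library passed 0.118, and AF was at 0.391 to 2.37 in vehicle and 1.54 to 7.44 in MDL-800. Cholesterol synthesis was positive in 6 of 22 genes (median -0.15; -0.07 without NP vehicle library 1). Fdps, farnesyl diphosphate synthase, was at 16.6 to 24.6 in NP vehicle and 11.7 to 16.5 in NP MDL-800 without overlap, and at 33.6 to 38.6 and 28.0 to 45.6 in AF (difference -0.42).

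Proliferation genes were positive in 2 of 27 cases (7.41%), with a median of -0.25, an NP effect of -0.12 and an AF effect of 0.15. Mcm6, a subunit of the replicative helicase, was at 16.7 to 37.0 in NP vehicle, 16.5 to 22.0 in NP MDL-800, 52.7 to 78.5 in AF vehicle and 50.8 to 88.7 in AF MDL-800 (difference -0.52, 95% interval -1.05 to 0.01). The median was -0.05 without AF MDL-800 library 30 and -0.46 without AF MDL-800 library 27. With bone markers as a covariate it turned to 0.17 and 24 of 27 genes were positive. Replication-dependent histones did not go with them: 39 of 55 were positive (median 0.43), from effects of 1.24 in NP and 0.74 in AF, and 11 of 55 (20%) were apart and higher in NP, against 3.5% of all genes. The histone median was -0.20 without AF MDL-800 library 27 and 0.93 without AF MDL-800 library 30, and many histone genes are near-identical copies whose reads may be shared. Hist1h4d was at 4.54 to 57.0 in NP vehicle and 78.5 to 232 in NP MDL-800, and at 8.91 to 254 and 11.3 to 985 in AF.

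Among gene classes the immunoglobulin and T cell receptor segments were the lowest. Of 161 tested, 32 were positive (19.9%, against 45.8% of all genes) and 17 (10.6%, against 1.61%) had a negative difference at a limma p under 0.05, with 0 positive ones. Their median difference was -0.82, from -0.27 in NP and 0.50 in AF, and it was -0.54 without NP vehicle library 6. The mean log2 level of these segments was low in NP, at 1.13 with vehicle and 0.85 after MDL-800. The AF means were 3.41 and 3.90. A segment could reach the level needed for a test through AF alone, and the added 1 understates a change at such NP levels. How far this set the shares against all genes was not tested. Igkc, the kappa constant region, was at 116 to 779 in NP vehicle, 50.9 to 239 in NP MDL-800, 1297 to 3018 in AF vehicle and 1919 to 7153 in AF MDL-800 (difference -1.32, SE 0.71). Jchain, which joins secreted antibody chains, was at 94.2 to 213 and 103 to 246 in AF (difference -1.30). Its difference was -0.68 with bone markers as a covariate, no longer at a limma p under 0.05. Groups overlapped for both genes, and variable segments are similar enough for reads to be shared. Small nucleolar RNAs had 40 of 60 positive differences (median 0.29, or -0.01 without AF vehicle library 12), from effects of -0.57 in NP and -0.71 in AF.

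Classes tied to the translation machinery stayed near 0, at -0.06 for 82 cytosolic ribosomal protein genes, -0.05 for 78 mitochondrial ones and -0.08 for 63 initiation and elongation factors. Single cytosolic genes ran from -0.81 to 1.92, and the smallest limma p was that of Rplp2, a stalk protein of the large subunit. Rplp2 was at 172 to 286 in NP vehicle and 595 to 1035 in NP MDL-800, and at 140 to 332 and 132 to 729 in AF (difference 1.34, SE 0.50; 95% interval 0.27 to 2.41). Rpl5 was at -0.78 and Mrpl14 at 0.95. Respiratory complex I genes had a median of -0.03 (17 of 37) and proteasome subunits -0.07 (13 of 38). The 347 Zfp genes, mostly KRAB zinc finger repressors, were positive in 111 cases (32.0%, against 45.8% of all genes), with a median of -0.08 and a median GC content of 43.9%. At a limma p under 0.05, 9 (2.59%) were positive and 5 (1.44%) negative, close to the 2.12% and 1.61% of all genes. Solute carriers were balanced, with 116 of 223 positive and a median of 0.01.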

How the data were processed

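RNA was sequenced from 20 libraries as stranded total RNA after ribosomal depletion, from 50 ng with 14 PCR cycles, per the labels' protocols. The authors deposited FPKM (2 decimals) for 51789 genes; STAR 2.7.11b and mm10 are named in the submitters' processing notes, and the counter and annotation are not given in the sources used here. Depth cannot be read from the FPKM, so no counting interval is given. Each library was divided by its median ratio over 11308 genes and analysed as log2(FPKM + 1). Genes at 1 FPKM or more in 5 libraries were kept (16383). All 4 groups entered 1 fit in limma 3.58.1 (R 4.3.3; trended variance, 16 residual degrees of freedom), and p-values were Benjamini-Hochberg adjusted over all genes. The 95% intervals use the standard error and 16 degrees of freedom. The code was tested on simulated data.

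Genes were named by rule: among genes with a mean of at least 5 scaled FPKM in 1 or more groups, the 10 protein-coding genes and 3 others of lowest p in each direction of the difference; without that level, the 2 members of lowest p of each pathway list and the 1 of each marker list and symbol class; and all sirtuins, Mt1 and Mt2. The contrast, the lists and this rule were chosen with earlier results of these data known; genes outside the rule were picked after their values were seen. Coordinates, types, length and GC content come from GENCODE M21 (GRCm38), and promoters from RefSeq (GRCm38.p6). Alternatives covered the pseudocount, filter, scaling, GC trend, variance model, marker covariates, a replicate block and each library left out.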

Additional observations from a re-analysis of the deposited data

Results flagged for a closer look

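In 35 named genes, 140 groups of 5 libraries were examined for a library whose gap to its nearest neighbour exceeded 0.71 of the group's range (Dixon's 95% value). Chance marks about 1 in 20 groups, and 4 groups were marked. Arih1 was highest in AF vehicle library 12, at 64.9 scaled FPKM. Pes1 was lowest in AF MDL-800 library 25, at 21.7. AC166358.2 was lowest in NP vehicle library 2, at 0.609. Sirt1 was lowest in AF vehicle library 9, at 11.1.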

How the results depend on the processing

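The count of genes whose NP and AF effects differed at an adjusted limma p under 0.05 was 0 in all alternatives except 2: it was 1 without AF MDL-800 library 30 and 1 without AF vehicle 12 and AF MDL-800 27 and 30 together. At an unadjusted p under 0.05 it ran from 426 (without NP vehicle 1) to 1004 (without AF vehicle 12) over the omissions, and was 1034 with a filter of above 0 in 5 libraries; the cause was not tested. For the NP effect, the 4 calls became 2 with pseudocounts of 0.1 and 0.5, with that filter and with muscle markers as covariate. They became 12 with a pseudocount of 2, 16 with 1 FPKM in 15 libraries, 14 with upper-quartile scaling and 13 in protein-coding genes only. They became 208 with 1 variance per tissue, 143 with library weights, 15 with red cell and 19 with bone markers as covariate, 244 without those 3 AF libraries and 41 from the NP groups alone, and 1 to 69 over the omissions (69 without AF MDL-800 27, 40 without AF vehicle 12). For the AF effect, 0 calls became 2 with the looser filter and 0 to 5 over the omissions (5 without AF vehicle 8). The paired libraries of the column names' second number correlated between -0.18 and 0.29; the labels do not say what the number marks, and it was not used as a pairing in the main values. The replicate block gave 856 genes at an unadjusted p under 0.05 as a fixed and 726 as a random effect, and 736 with the GC trend also removed, with 0 adjusted calls each. The block fits and the joint omission were chosen after seeing the data. The median of 27 of 72 lists and classes kept its sign in all 41 alternatives. Depth is unknown.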
